A study of Mus musculus with 6 samples.

Results

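Glutathione, thioredoxin and NADPH oxidase genes were compared between the tumour stroma of Pdia4 -/- (KO) mice and that of wild-type (WT) mice. The members were the probe sets whose Mouse430_2 annotation named 1 of 42 listed symbols as the only gene. That gave 82 probe sets for 38 genes, of 45101 on the array. Prdx1 was left out because its 5 probe sets are assigned jointly to Gm21399, and G6pdx, Prdx5 and Prdx6 are not analysed here. Of the 82 probe sets, 66 for 35 genes were called Present, the array software's word for signal above its mismatch control, on at least 3 of the 6 arrays and were tested.

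The KO group was 3 male B6 mice with Pdia4 -/- genotype, and the WT group 3 male B6 mice. All 6 carried a tumour grown under the skin for 4 weeks, and 1 array was made per sample. The tumour is LLC, the Lewis lung carcinoma line, in the growth protocol and GK1 in the series design. The labels give neither the tumour cells' genotype nor whether the deletion acts in every cell. The Pdia4 protein works in the endoplasmic reticulum (ER), where it makes and reshuffles disulphide bonds of other proteins. Since nothing says that the samples were processed separately, p-values measure only the spread between these arrays.

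Cells keep protein thiols reduced by way of glutathione and thioredoxin, both of which are recharged with electrons from NADPH. Glutathione is built from cysteine, which cells take up as cystine and reduce, and it feeds the peroxidases, transferases and glutaredoxin. Thioredoxin feeds the peroxiredoxins, which remove hydrogen peroxide. The transcription factor NRF2 (gene Nfe2l2), held down by Keap1, drives many of these genes. The phagocyte NADPH oxidase does the opposite work, as it makes superoxide in neutrophils and macrophages.

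The labelled gene and the cell content set the frame. Pdia4 itself read 2324, 1521 and 1402 on KO replicates 1 to 3, against 3942, 2766 and 4104 on the WT arrays. The groups did not overlap, and mean KO signal was 48.5% of WT (log2 difference -1.06, SE 0.28, limma adjusted p = 0.161). The sources used here do not say whether its probe set lies outside the deleted part. KO replicate 3, whose column header carries another number prefix than those of the other 5 arrays, scored -105 on the first principal component. The other KO arrays scored -12.0 and -11.8, and the WT arrays 37.1 to 51.0. Summed signals of 12 macrophage markers were 149958 to 232448 in KO and 107863 to 143981 in WT, and 6 of the 12 were higher without overlap. Sums of dendritic, T cell, NK and endothelial markers were also higher on every KO array, though not every marker was. Of those tested, 3 of 4 dendritic, 5 of 5 T cell, 5 of 6 NK and 5 of 5 endothelial markers were higher. In that order 2, 4, 3 and 3 of them were free of overlap, and Itgax made up most of the dendritic sum. Among all tested genes 12.7% were higher and 20.5% lower without overlap, the shares to set beside each marker count in this paragraph. Sums of 6 epithelial markers, 2523 to 6628 in KO and 11591 to 15489 in WT, were lower. Of the 3 tested, Krt8 and Krt18, which make up most of the sum, were lower without overlap, and Cdh1 was higher with overlap. Sums of 8 fibroblast markers were 40768 to 55347 in KO and 64390 to 67112 in WT, but the markers split. Without overlap 4 were lower, among them Col3a1, which makes up most of the sum, and Col1a1 and Col1a2 were higher. KO replicate 2 and WT replicate 3 stood apart by erythroid markers, whose sums were 28754 and 31217 there and 458 to 1377 on the other arrays. Those arrays were also highest for B cell sums (2230 and 7124) and for the granulocyte precursor gene Ngp (40685 and 51535). Epcam was Present on 0 arrays. Ratios of 3′ to 5′ β-actin signal, a measure of RNA integrity, were 1.51 to 1.99 in KO and 1.66 to 4.26 in WT. The part of cell content or RNA integrity in the results was not tested, and in such bulk RNA fewer cells of a type and less RNA per cell cannot be told apart.

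The redox genes did not move as a block. Slc7a11 for cystine import (5.82-fold), Gsr for glutathione recycling, Hmox1 for haem breakdown, and Txnrd1 and Srxn1 of the thioredoxin system were higher in KO stroma, every KO array above every WT array. Most thioredoxins, peroxiredoxins and glutathione peroxidases were level or lower. No member passed limma's test at an adjusted p under 0.05, and the smallest adjusted p was 0.13. Of all 22063 tested probe sets 6 passed (0.0272%). Scaling to the 5′ β-actin signal lowered every log2 difference by a like amount and moved the median of all probe sets to -0.70, from -0.05 as deposited. That signal is also the 5′ side of the β-actin ratio given above, 1.51 to 1.99 in KO and 1.66 to 4.26 in WT. The part of RNA integrity in the scaling was not tested. Under this scaling 10 of 35 redox genes were higher in KO, including Slc7a11, Gsr, Hmox1, Mgst1, Glrx, Sqstm1 and Sod2. Txnrd1 (0.03) and Srxn1 (0.08) were then close to level, and Gstm1 and the NADPH oxidase genes turned lower.

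Values of the KO arrays all lay above those of the WT arrays in 11 of 35 genes (31.4%), against 12.7% of all tested genes and 13.5% of tested probe sets. In 2 genes they all lay below (5.71%), against 20.5% of tested genes and 17.1% of tested probe sets. With β-actin 5′ scaling the count of genes without overlap, both directions together, was 11 in place of 13. The directions and the share of all tested genes were not worked out under that scaling. At an unadjusted p under 0.05, 9 genes were higher (25.7%) and 1 lower (2.86%). Of all tested genes 8.88% were higher and 11.8% lower at that p, and of tested probe sets 9.99% and 10.2%. The median log2 difference over the 35 genes was 0.14, and that over all 11357 tested genes was -0.10. On the probe set that represents it, none of the 35 was tested through 1 group alone, since each was Present on at least 2 arrays of both groups. The exact permutation test over arrays cannot go below p = 0.1 with 3 against 3, the value it gave for each of the 13 genes without overlap.

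**Figure D1:**
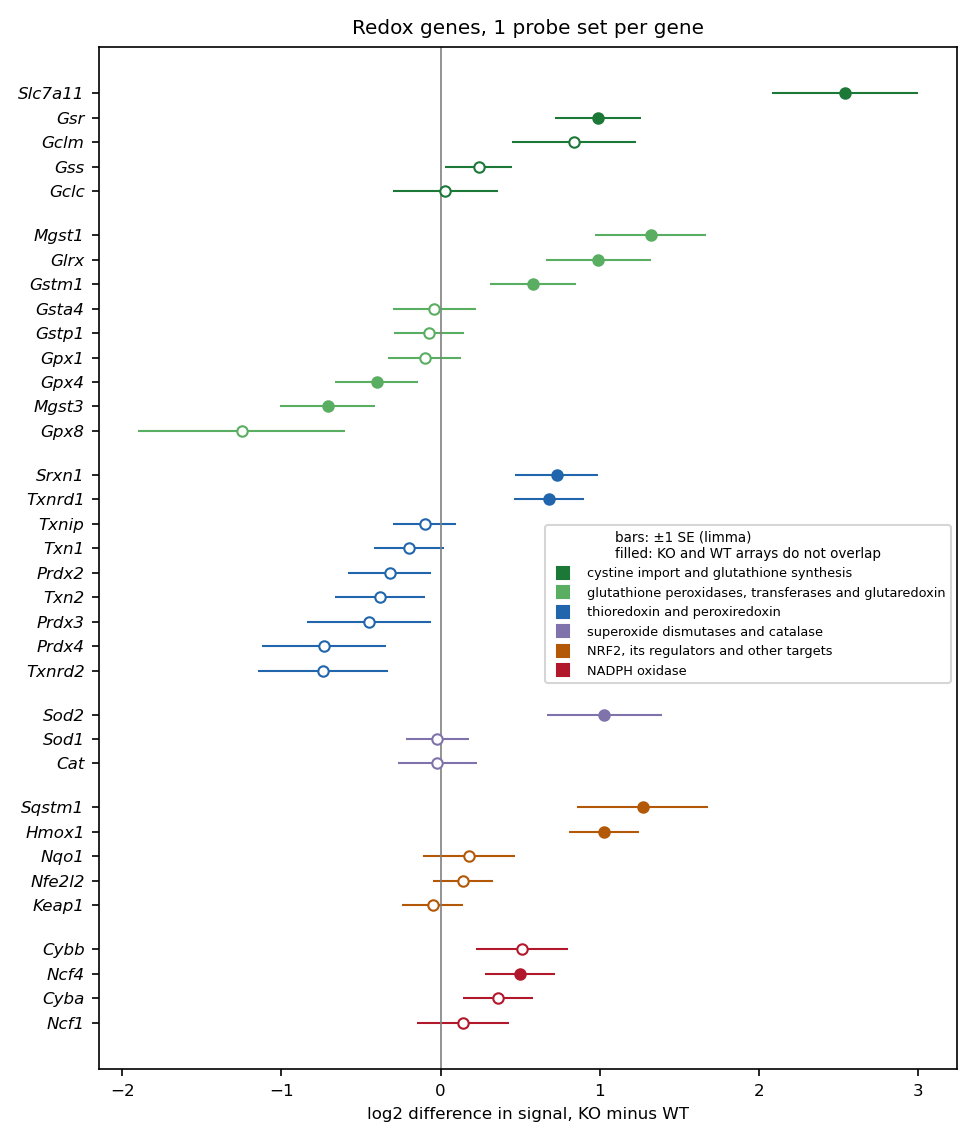
Log2 difference in signal, KO minus WT, for the 35 tested redox genes (1 probe set each), grouped by class, with bars of 1 SE from limma over 3 KO and 3 WT arrays. Filled points mark the 13 genes whose KO and WT arrays do not overlap, and Slc7a11 lies farthest right at 2.54. With β-actin 5′ scaling all points would sit farther left, and Gclc, Gss, Gstm1, Nfe2l2, Nqo1 and the 4 NADPH oxidase genes fall below 0.

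Cystine import and glutathione synthesis was the class with the highest median, 0.84 on the log2 scale, and all 5 of its genes were above 0 (3 of 5 with β-actin 5′ scaling). That rank depended on the setting. With averaged probe sets per gene its median was 0.58, below the NRF2 class at 1.03. Without WT replicate 1 it was 0.44, below NADPH oxidase at 0.52. Slc7a11 (probe set 1420413_at), the exchanger subunit that brings cystine into the cell, read 1632, 918 and 3033 on KO replicates 1, 2 and 3. On the WT arrays it read 423, 227 and 240. The lowest KO array thus stood well above the highest WT array. Means were 1861 ± 1076 in KO and 297 ± 110 in WT (SD, n = 3 each), and limma gave a log2 difference of 2.54 (SE 0.46, adjusted p = 0.13). Its other tested probe set was Present on 3 KO arrays and 0 WT arrays. It read 72.4, 53.9 and 341 in KO and 9.6, 20.3 and 17.0 in WT, 7.38-fold higher in KO (log2 difference 2.88, SE 0.67). That set passed the filter through the KO arrays alone, so it adds no separate support. Slc3a2, the heavy chain that pairs with Slc7a11 and no member here, read 6188, 6704 and 9694 in KO and 4179, 4460 and 3545 in WT, a log2 difference of 0.87 (SE 0.24, limma adjusted p = 0.164).

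Gsr (1421817_at), the reductase that turns oxidised glutathione back to the reduced form, read 4163, 4497 and 6993 in KO and 2089, 2692 and 2980 in WT. All KO arrays lay above all WT arrays, with a log2 difference of 0.99 (SE 0.27, limma adjusted p = 0.163). A second Gsr probe set gave 1421, 2058 and 1993 in KO and 583, 885 and 694 in WT, again without overlap (1.34, SE 0.25, adjusted p = 0.131). The enzymes that assemble glutathione were less apart. Gclm, the modifier subunit of the rate-limiting ligase, read 1320, 1405 and 1874 in KO and 485, 858 and 1444 in WT. Its groups overlapped through WT replicate 3, and the difference of 0.84 was 0.44 without WT replicate 1. Gclc, the catalytic subunit of that ligase, differed by 0.03, with its highest values on KO replicate 2 (1378) and WT replicate 3 (1530), the arrays high in erythroid markers. The part of those cells was not tested. Gss, glutathione synthetase, differed by 0.24. The other tested probe sets of Gclm, Gclc and Gss differed by 0.32, 0.46 and 0.13, each with overlap.

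The promoter of Slc7a11 is shown because it had the largest difference, and those of Mgst1, Srxn1 and Txnrd1 because they were higher without overlap and hold a core of the antioxidant response element, the motif NRF2 binds. Sequences are from RefSeq (build GRCm38.p6), read 5′ to 3′ on the gene's strand. Capitals mark a match, on either strand, to TGACNNNGC in the last 3, and to TGATGNAA, a core of the element bound by ATF4 with C/EBP factors, in Slc7a11. The second motif was chosen after that promoter had been read. No printed match of one motif overlaps one of the other.
Slc7a11, chr3:50443629-50443703, minus strand: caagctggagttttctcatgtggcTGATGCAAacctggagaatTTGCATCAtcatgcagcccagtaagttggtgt
Mgst1, chr6:138140447-138140503, plus strand: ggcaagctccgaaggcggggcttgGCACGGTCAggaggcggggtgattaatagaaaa
Srxn1, chr2:152105528-152105573, plus strand: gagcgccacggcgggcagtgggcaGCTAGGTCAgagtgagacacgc
Txnrd1, chr10:82859090-82859146, plus strand: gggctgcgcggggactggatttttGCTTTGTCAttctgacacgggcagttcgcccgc

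Windows ran from 250 bases before to 50 after the annotated start. TGACNNNGC occurred in 8 of the 35 listed redox genes with such a window (22.9%) and in 14.0% of all 27025 genes. Among genes higher in KO without overlap it occurred in 3 of 8, and among the other tested members in 3 of 22, namely Gclm, Nfe2l2 and Sod1. TGATGNAA occurred in 4.51% of all genes and, of the 35, in Slc7a11 alone, which held it on both strands. These matches describe the letters in the window and not binding.

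The enzymes that spend glutathione went both ways. Of 9 tested, 3 were higher without overlap (33.3%, against 12.7% of all tested genes). Lower without overlap were 2 (22.2%, near the 20.5% of all tested genes), and the class median was -0.07. Mgst1 (1415897_a_at), a membrane-bound transferase of the ER and mitochondria, read 7108, 7885 and 11833 in KO and 3121, 2459 and 5578 in WT. That is a log2 difference of 1.32 (SE 0.35, limma adjusted p = 0.162), with WT replicate 3 nearest to the KO arrays. Its relative Mgst3 read 3263, 3798 and 1956 in KO and 4854, 3928 and 5579 in WT, a log2 difference of -0.71 (SE 0.30, adjusted p = 0.242). Mgst2, a relative that is no member here, differed by 0.13 with overlap.

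Glrx, a glutaredoxin that strips glutathione from proteins, read 4506, 7242 and 10806 in KO and 3386, 4183 and 3198 in WT (log2 difference 0.99, SE 0.33, limma adjusted p = 0.192). KO replicate 1 lay only just above WT replicate 2. A second Glrx probe set differed by 2.16 but its groups overlapped, as KO replicate 1 read 892 and WT replicate 2 read 1182. Gstm1, a cytosolic transferase, read 895, 1516 and 914 in KO and 612, 787 and 765 in WT, a log2 difference of 0.58 (-0.07 with β-actin 5′ scaling, 0.34 without KO replicate 2). Its probe set can pick up near-identical Gstm relatives. A second set differed by 0.73 and was also free of overlap. Gsta4 and Gstp1, other cytosolic transferases, differed by -0.04 and -0.07.

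Glutathione peroxidases were level or lower. Gpx1, the cytosolic form, read 25969, 24687 and 27153 in KO and 30246, 21503 and 32644 in WT. The KO values all fell within the WT range. Gpx4, which reduces lipid peroxides in membranes, read 12794, 12183 and 7457 in KO and 13062, 14166 and 14329 in WT. Every KO array was lower, by -0.40 on the log2 scale (SE 0.26, limma adjusted p = 0.392), but by -0.15 without KO replicate 3. Gpx8, a peroxidase of the ER, read 2253, 1874 and 392 in KO and 1955, 4000 and 2874 in WT. It had the lowest log2 difference of all 35 genes, -1.25 (SE 0.65, adjusted p = 0.308), yet its groups overlapped and it was -0.46 without KO replicate 3. Mgst3 moved to -0.43 in the same way. Gpx3 and Gpx7 were Present on 0 and 1 of the 6 arrays and were not tested.

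**Figure D2:**
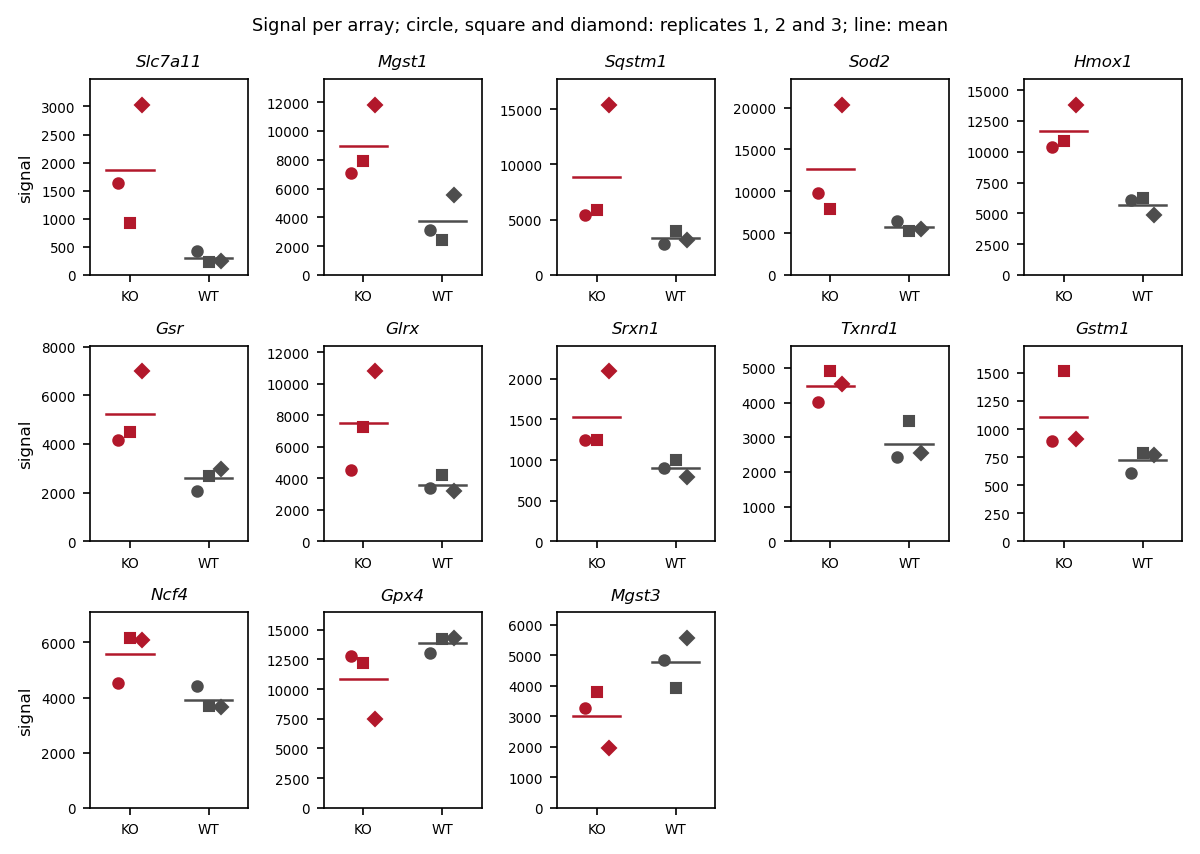
Signal on each array, on axes that start at 0, for the 13 redox genes whose KO and WT arrays do not overlap, with KO left of WT. Lines are means of 3 arrays, and the diamond of KO replicate 3 is the highest point in 8 of the 13 panels and the lowest in 2.

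In the thioredoxin and peroxiredoxin class 2 recycling enzymes were higher in KO without overlap (22.2%, against 12.7% of all tested genes). The other 7 genes were below 0 (77.8%, against 57.9% of all tested genes). The median over 9 genes was -0.32. Txnrd1, the cytosolic reductase that recharges thioredoxin, read 4003, 4908 and 4543 in KO and 2432, 3466 and 2547 in WT. It was higher in KO by 0.68 (SE 0.22, limma adjusted p = 0.185), by 0.67 without KO replicate 3 and by 0.03 with β-actin 5′ scaling. Srxn1, which rescues over-oxidised peroxiredoxins, read 1248, 1253 and 2096 in KO and 909, 996 and 792 in WT. Its log2 difference was 0.73 (SE 0.26, adjusted p = 0.207), 0.48 without KO replicate 3 and 0.08 with β-actin 5′ scaling. Its 2 other tested probe sets differed by 0.95 and 1.18, each without overlap.

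The KO and WT arrays of the other 7 genes overlapped on the probe set that represents each. Txn1, cytosolic thioredoxin, read 38996, 30093 and 34796 in KO and 47443, 33156 and 39685 in WT. Txnrd2, the mitochondrial reductase, had the lowest log2 difference of the class, -0.74 (SE 0.41, limma adjusted p = 0.332). It read 421, 589 and 187 in KO and 530, 600 and 674 in WT, while its other tested probe sets differed by 0.02 and 0.23. Mitochondrial Txn2 and Prdx3 differed by -0.38 and -0.45, cytosolic Prdx2 by -0.32, and Txnip, an inhibitor of thioredoxin, by -0.10.

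Prdx4 is the peroxiredoxin of the ER, where it can pass oxidising power from hydrogen peroxide to protein disulphide isomerases. It read 5627, 6326 and 2727 in KO and 5699, 11119 and 6971 in WT, a log2 difference of -0.73 (SE 0.39, limma adjusted p = 0.32). The groups overlapped through KO replicate 2 and WT replicate 1. A second Prdx4 probe set read 779, 628 and 553 in KO and 1349, 844 and 822 in WT, without overlap (-0.60, SE 0.27, adjusted p = 0.262). The 2 remaining tested sets overlapped, with log2 differences of -0.13 and -0.40, and on the one at -0.40 the mean signal was 53.7 in KO and 44.2 in WT. Without KO replicate 3 the differences of Txnrd2, Prdx2, Prdx3 and Prdx4 were -0.27, -0.15, -0.13 and -0.35.

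Sod2, the manganese superoxide dismutase of mitochondria, parted from the other enzymes of its class. It read 9842, 7867 and 20357 in KO and 6439, 5202 and 5471 in WT, a log2 difference of 1.03 (SE 0.36, limma adjusted p = 0.197) and 0.63 without KO replicate 3. Cytosolic Sod1 read 10737, 9449 and 10340 in KO and 11254, 8749 and 11190 in WT, and catalase (Cat) differed like it by -0.02. A second Sod2 probe set differed by 1.18 without overlap, and those that overlapped gave 0.69 and -0.24. The set at -0.24 was dim, with mean signals of 51.7 in KO and 58.7 in WT, and was Present on 2 arrays of each group. Sod1 gave -0.06 and 0.03 on its other tested sets. Sod3, the secreted form, was Present on 0 of 6 arrays on both its probe sets.

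NRF2 and its regulator Keap1 were close to level on the probe sets that represent them, while some genes that NRF2 is known to drive were higher in KO. Hmox1, haem oxygenase, which breaks haem down to biliverdin, iron and carbon monoxide, read 10422, 10871 and 13826 in KO and 6041, 6236 and 4859 in WT. The groups lay far apart, with a log2 difference of 1.03 (SE 0.22, limma adjusted p = 0.14) and 0.91 without KO replicate 3. Sqstm1, the autophagy receptor p62 that can take Keap1 out of action, read 5425, 5850 and 15416 in KO and 2791, 3954 and 3166 in WT. Its log2 difference was 1.27 (SE 0.41, adjusted p = 0.185), and 0.79 without KO replicate 3. Its other probe set differed by 1.40 without overlap.

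The Nfe2l2 probe sets disagreed in size. The one that represents the gene, 1416543_at, read 7173, 7304 and 7144 in KO and 6097, 7456 and 6099 in WT, a log2 difference of 0.14. The other, 1457117_at, read 423, 964 and 1481 in KO and 146, 201 and 133 in WT, a difference of 2.43 (SE 0.45, limma adjusted p = 0.131). The sources used here do not say which part of the transcript each covers. Keap1 differed by -0.05 and -0.23 on its probe sets. Nqo1, a quinone reductase often used as a readout of NRF2, read 120, 199 and 132 in KO and 120, 105 and 173 in WT, again highest on KO replicate 2 and WT replicate 3 of their groups.

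**Figure D3:**
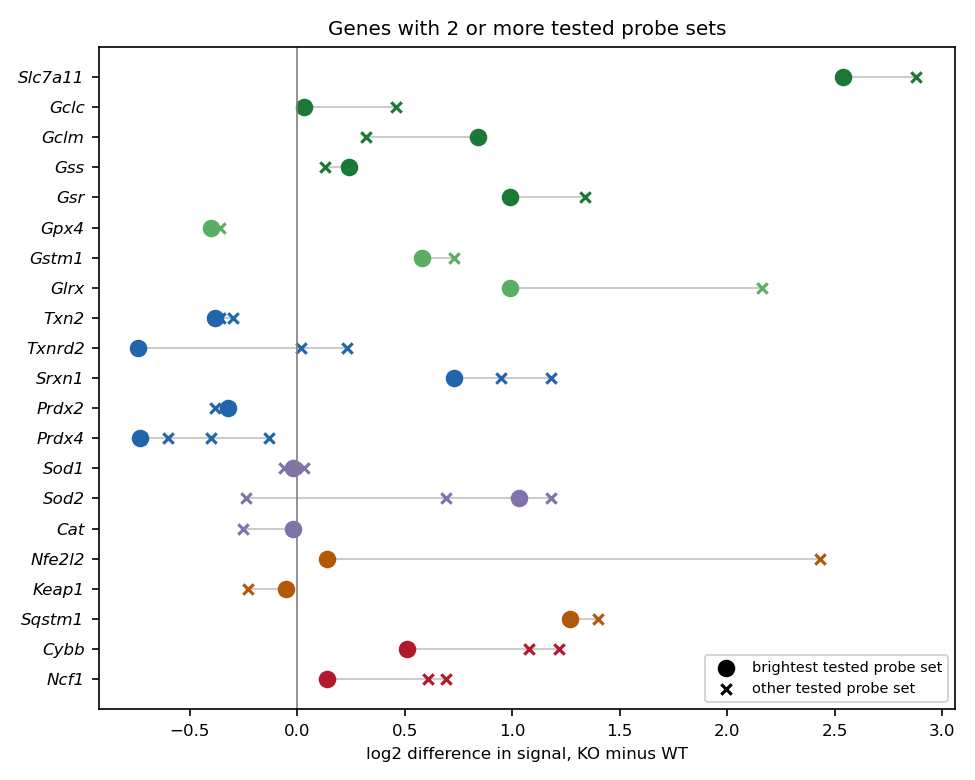
Log2 difference, KO minus WT, of every tested probe set in the 21 redox genes with at least 2 such sets, where circles are the set that represents the gene and crosses the others. Nfe2l2, Glrx, Txnrd2 and Sod2 show the widest spread, and the sign differs between sets in Txnrd2, Sod1 and Sod2. The Sod2 set below 0 is dim, with mean signals of 51.7 in KO and 58.7 in WT.

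A wider list of 30 NRF2 targets was drawn from general knowledge, with earlier results of these data known. It shares genes with the members of this report, and 25 of its genes were tested. Of these 17 were higher in KO (68.0%, against 42.1% of all tested genes), 10 without overlap (40.0%, against 12.7%), none was lower without overlap (against 20.5%), and 0 passed limma's adjusted threshold, against 8 higher and 1 lower by its raw p under 0.05. Without the members of this report, 7 of the remaining 12 were higher, 3 without overlap, and their median was 0.10. Those 3 were Pgd (0.44) and Taldo1 (0.62), enzymes of the pentose phosphate pathway, and the exporter Abcc1 (0.36), of which Pgd and Abcc1 are named after their values were seen. The largest difference among the 12 was that of Aox1, an aldehyde oxidase, at -1.01 (SE 0.41, adjusted p = 0.235), with overlap, and Osgin1 differed by 0.66. Taldo1 read 5097, 8696 and 7882 in KO and 4427, 4881 and 4499 in WT. Of 7 other NRF2 regulators 3 were higher, 2 without overlap (28.6%, against 12.7% of all tested genes), namely Maff (1.43) and Mafk. By raw p under 0.05, 1 was higher (14.3%, against 8.88%). Mafk, a small Maf protein that pairs with NRF2, read 1418, 1314 and 2203 in KO and 584, 631 and 770 in WT (log2 difference 1.28, SE 0.26, adjusted p = 0.14). Bach1, a repressor of Hmox1, differed by 0.71 with overlap. Of 10 other haem and iron genes 7 were higher in KO (70.0%, against 42.1%). Without overlap and by raw p under 0.05, 3 were higher (30.0%, against 12.7% and 8.88%), namely Blvra (0.58), Slc11a1 (0.71) and Slc40a1. Slc40a1, the iron exporter ferroportin, read 6022, 4864 and 3549 in KO and 1146, 772 and 2842 in WT, a log2 difference of 1.79 (SE 0.47, adjusted p = 0.162).

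Other thioredoxin-system genes were near the shares of all tested genes. Of 18 tested, 13 were lower in KO (72.2%, against 57.9% of all tested genes), 5 without overlap (27.8%, against 20.5%), and 2 were higher without overlap (11.1%, against 12.7%). Those higher were the methionine sulphoxide reductases Msrb1 and Msra, which repair oxidised methionine, with log2 differences of 0.77 (SE 0.22) and 0.94 (SE 0.28). Selenom, a selenoprotein of the ER, differed by -0.70. The other genes lower without overlap, named after their values were seen, were Txndc5 (-0.74), Tmx1 (-0.54) and Tmx4 (-0.30), thioredoxin-fold proteins of the ER like Pdia4, and Txnl1 (-0.31), a cytosolic relative of thioredoxin. Among 16 other glutathione genes the median was 0.06. Chac1, which degrades glutathione, differed by 0.72 and the transferase Gstt1 by -0.69, each without overlap. Among 10 mitochondrial redox genes, 5 of them members, 7 were lower (70.0%, near the 57.9% of all tested genes), and Nnt, which makes mitochondrial NADPH, read 2885, 1815 and 969 in KO and 3895, 2935 and 3215 in WT. By limma 0 genes of these lists passed, with adjusted p-values of 0.164 or more. By raw p under 0.05, 2 thioredoxin-system genes were higher and 2 lower (11.1% each), and 2 glutathione genes were higher (12.5%) and 1 lower (6.25%). Of the mitochondrial genes 1 was higher and 1 lower (10.0% each). Of all tested genes 8.88% were higher and 11.8% lower at that p, so these counts lay near those shares.

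All 4 phagocyte NADPH oxidase genes were higher in KO, but by small amounts, with a class median of 0.43, and all 4 turned lower with β-actin 5′ scaling (median -0.22). By limma 0 passed at an adjusted or at an unadjusted p under 0.05. Cybb, the catalytic subunit gp91phox, had the highest log2 difference, 0.51 (SE 0.29, adjusted p = 0.341). It read 12028, 9640 and 18935 in KO and 9462, 7677 and 10407 in WT, so KO replicate 2 lay within the WT range. Cyba, its membrane partner, read 22265, 22085 and 28831 in KO and 22589, 16365 and 18096 in WT. Ncf4, a cytosolic regulator, read 4508, 6172 and 6086 in KO and 4413, 3686 and 3660 in WT (0.50, SE 0.22, adjusted p = 0.251). KO replicate 1 lay barely above WT replicate 1. Ncf1, the organiser p47phox, differed by 0.14.

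Other probe sets of Cybb and Ncf1 stood farther apart. Cybb gave 1.22 on a set that read 421, 652 and 756 in KO and 204, 326 and 247 in WT, and 1.08 on another. Ncf1 gave 0.69 on a set that read 930, 1245 and 1180 in KO and 654, 651 and 757 in WT, and 0.61 on another. The groups did not overlap on 3 of these 4 sets. Without KO replicate 3 the class median was 0.24, with Cybb at 0.24, Cyba at 0.23 and Ncf1 at 0.08.

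Myeloid markers moved beside some of these genes on some arrays only. Relative to the mean of the WT arrays, summed macrophage markers were 1.32, 1.19 and 1.85 on KO replicates 1, 2 and 3. Cybb was 1.31, 1.05 and 2.06 there, and Cyba was likewise highest on KO replicate 3. Ncf1 and Ncf4 were instead highest on KO replicate 2, where the macrophage sum was the lowest of the KO arrays. Among the WT arrays the macrophage sum was lowest on replicate 3, where Cybb was highest. Summed neutrophil markers, all 12 on the array included, were 1.06, 1.49 and 1.46 in KO and overlapped with 0.761, 0.459 and 1.78 in WT. All 11 tested neutrophil markers had positive log2 differences (median 1.42), against 42.1% of all tested genes. Of the 11, 3 were higher without overlap, against 12.7% of all tested genes. Csf3r, the receptor of the granulocyte growth factor G-CSF, read 4966, 4582 and 7424 in KO and 2003, 1905 and 2299 in WT. Their part in the oxidase values was not tested. Of 7 other oxidase genes, Vav1, an activator of Rac proteins, was higher without overlap (0.90, SE 0.26, limma adjusted p = 0.172) and Cybc1, a chaperone of the membrane subunits, was lower without overlap at -0.40 (SE 0.21, adjusted p = 0.305). Rac2, the small GTPase of the complex, read 3222, 7497 and 5873 in KO and 2205, 3117 and 3491 in WT, with overlap.

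**Figure D4:**
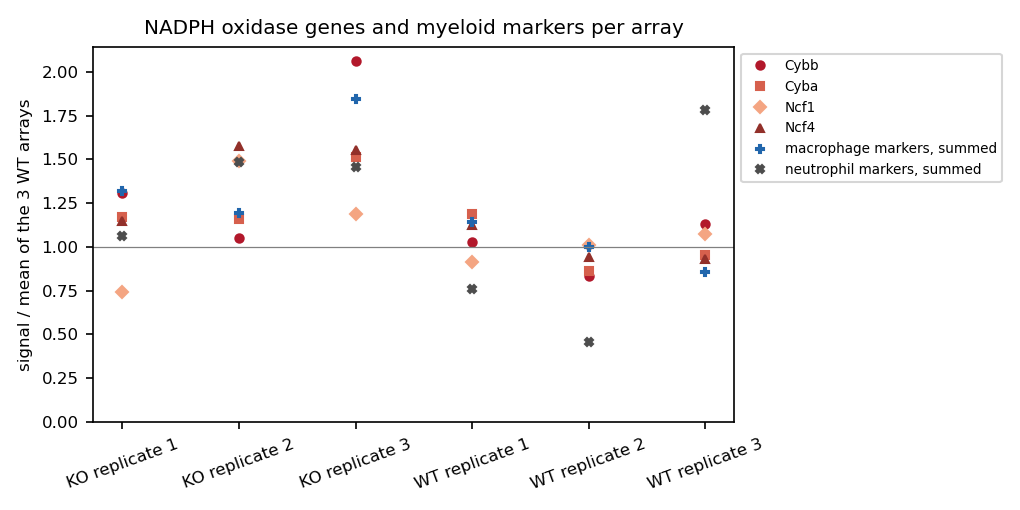
Signal of the 4 NADPH oxidase genes and summed signal of macrophage and neutrophil markers on each array, as a ratio to the mean of the 3 WT arrays. KO replicate 3 is highest for Cybb (2.06), Cyba (1.52) and the macrophage sum (1.85), and WT replicate 3 for the neutrophil sum (1.78). KO replicate 2 is highest for Ncf1 and Ncf4. With β-actin 5′ scaling the mean log2 difference of each of the 4 genes is below 0.

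KO replicate 3 was the highest of the 6 arrays in 11 of 35 genes and the lowest in 11 (31.4% each). Over all tested genes it was the highest in 24.3% and the lowest in 41.4%. Without it 0 redox genes passed limma's adjusted threshold. At an unadjusted p under 0.05 there were 10 of 35, both directions together, as with all 6 arrays. The share of all tested genes at that p was not worked out for this fit. Slc7a11 then differed by 2.10, Gsr by 0.76 and Mgst1 by 1.10. The 13 genes without overlap stayed so, since leaving out an array can only free groups from overlap.

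The authors' deposited table of 1554 signed folds held 6 probe sets of 6 redox genes. It listed Slc7a11 at -4.086, Nfe2l2 (1457117_at) at -3.894 and Glrx (its second probe set) at -3.164. It listed Gpx8 at 2.999, Prdx4 at 2.487 and Mgst3 at 2.444. In that table the sign opposed KO minus WT in 1554 of 1554 probe sets, so its folds run as WT over KO by the labels used here. The sources used here do not say how the folds were made.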

How the data were processed

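RNA from tumour stroma was measured on 1 Affymetrix Mouse430_2 array per sample, 3 KO and 3 WT. The authors deposited, per array and probe set, an intensity on a linear scale (Signal) with a detection call. A deposited report on 1 of the arrays says that signals came from the Statistical algorithm scaled to a target of 500, with alpha1 0.05, alpha2 0.065 and tau 0.015. The sources used here give no software version. The deposited signed folds of the authors were read as a score of unstated origin. The value table matched the array files in 270606 of 270606 cells. Present calls per array numbered 21202 to 22185. Precision is limited by the number of arrays.

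Signals were taken as already normalized and tested as log2, without a pseudocount. The 64 control probe sets were left out. Probe sets Present on at least 3 of 6 arrays were fitted with limma 3.58.1 in R 4.3.3 (lmFit, eBayes, no covariates), two-sided, with Benjamini-Hochberg adjustment over all 22063. A gene is represented by its tested probe set of highest mean. Where a group had 0 Present calls, as in 1 tested probe set of Slc7a11, the larger of 2 values was taken for each such array. These were the dimmest Present signal of the array and that of the probe set. The signal of the Slc7a11 set was the larger on each WT array, so its fold is that of the signals as read. The fit was tested on simulated data. Symbols came from the platform annotation and were checked by Entrez ID (34754 of 34958 matched, 0 changed) against the RefSeq table of GRCm38.p6.

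The members, classes and lists were chosen with earlier results of these data known. Values per array are given for members without overlap and for the gene of largest difference and that of highest mean signal in each class. Up to 3 genes of smallest p could be named from each wider list, and other probe sets are named where they differ. Alternatives were quantile, 75th percentile and β-actin 5′ scaling, no filter, Present on all 6 arrays, 32 added to signals, averaged probe sets per gene, the replicate block, trend and robust, array weights, and leaving out each array. Same-numbered KO and WT arrays deviated together at r = 0.157, 0.0254 and -0.101 across probe sets. Such values cannot tell whether the numbers pair the samples, and the main fit took them as unpaired.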

Additional observations from a re-analysis of the deposited data

How the results depend on the processing

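Under each alternative with a test (averaged probe sets gave differences only) 0 redox genes passed the adjusted threshold, except that 2 did under β-actin 5′ scaling (Slc7a11 at 1.89 and Gpx8 at -1.91). That scaling moved the median of all probe sets to -0.70. It gave medians of -0.52 for the redox genes, 0.19 for cystine import and glutathione synthesis, -0.73 for the glutathione-using enzymes, -0.98 for thioredoxin and peroxiredoxin, -0.68 for superoxide dismutases and catalase, -0.48 for NRF2 and its targets and -0.22 for NADPH oxidase. It turned Gclc (-0.62), Gss (-0.42), Gstm1 (-0.07), Nfe2l2 (-0.51), Nqo1 (-0.48), Cybb (-0.14), Cyba (-0.29), Ncf1 (-0.52) and Ncf4 (-0.15). Over all tested probe sets it called 1135 (82 higher, 1053 lower), against 6 (5 and 1) as reported, 27 (24 and 3) with 32 added and also with trend and robust, 19 (17 and 2) with array weights, 1 (higher) with the 75th percentile, 2 (both higher) without WT replicate 2 and 0 under the other alternatives with a test.

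Near-level genes changed sign elsewhere. Quantile normalization gave 0.01 for Gsta4, 0.02 for Cat and 0.01 for Keap1. The 75th percentile gave 0.04 for Gsta4, 0.01 for Gstp1, 0.06 for Sod1, 0.06 for Cat and 0.03 for Keap1. Array weights gave -0.06 for Gclc, 0.07 for Gsta4, 0.07 for Gstp1 and -0.03 for Ncf1. Txnrd2 read 0.02 with Present calls on all 6 arrays, where another of its probe sets stands in. The median of the NRF2 class was 1.03 with averaged probe sets per gene, since Nfe2l2 then takes in its second set, and that of glutathione synthesis was 0.58. That of superoxide dismutases and catalase was 0.51 with no filter, where Sod3 enters.

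Leaving out 1 array at a time gave ranges of 0.02 to 0.19 for the redox median, 0.44 to 1.10 for glutathione synthesis, -0.15 to 0.09 for the glutathione-using enzymes (0.09 without KO replicate 3), -0.48 to -0.15 for thioredoxin and peroxiredoxin (-0.15 without KO replicate 3), -0.14 to 0.18 for superoxide dismutases and catalase, 0.12 to 0.39 for NRF2 and its targets and 0.24 to 0.52 for NADPH oxidase. Genes that changed sign ranged from -0.18 to 0.34 (Gclc), -0.28 to 0.02 (Gpx1), -0.15 to 0.17 (Gsta4), -0.23 to 0.09 (Gstp1), -0.14 to 0.04 (Sod1), -0.16 to 0.18 (Cat), -0.12 to 0.03 (Keap1), -0.05 to 0.39 (Nqo1) and -0.09 to 0.42 (Ncf1). The count of genes without overlap, both directions together, ranged from 13 to 19, and was 11 with β-actin 5′ scaling. The matching shares of all tested genes were not worked out, and with 1 array out the groups of any gene part more easily. Values that moved by over 1.5 times with 1 array out, beside those without KO replicate 3, included Gclm (0.44 without WT replicate 1), Gstm1 (0.34 without KO replicate 2), Prdx3 (-0.21) and Prdx4 (-0.46) without WT replicate 2. With the replicate block 0 redox genes passed, as without it. No cause of these shifts was tested beyond those named.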
